A study of Mus musculus with 9 samples.

Results

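The brain endothelial cells (ECs) described here are those that the authors left without an arteriovenous zonation subtype. The deposited table of cells labels them as endothelial and gives them the subtype entry "EC_unclassified" in place of one of the 6 subtype names. There were 1881 such cells among 20403 ECs, out of 72543 cells of all types. The other 18522 ECs carried a subtype, namely 2645 aEC1 and 2832 aEC2 (arterial), 4012 capEC (capillary), 5774 vcapEC (capillary and venous), 2253 vEC (venous) and 1006 avEC (arterial and venous). ECs line every blood vessel, and in the brain they form the blood–brain barrier through tight junctions, low transcytosis and dedicated transporters. Their expression shifts along the vessel, with arterial genes such as *Gkn3* and *Bmx* at one end, venous genes such as *Nr2f2* and *Slc38a5* at the other, and barrier transporters such as *Mfsd2a* and *Slc16a1* in the capillaries between them. The study's classifier, *CellAssign*, placed each EC by its zonation genes, and an EC received a subtype only if 3 separate runs gave the same answer, so by the study's methods an EC without a subtype is one on which the runs differed.

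The data were 9 droplet-based single-cell RNA sequencing libraries (10x Chromium 3′ version 2) of dissociated brains without the cerebellum from male C57BL/6J mice, with 3 libraries in each of 3 groups. Young adult mice were 2 to 3 months old and untreated. Aged mice were 18 to 20 months old and untreated. Exenatide-treated aged mice were 18 to 20 months old and had received exenatide, an agonist of the glucagon-like peptide-1 receptor, intraperitoneally at 5 nmol/kg/day for 4 to 5 weeks from an age of 17 to 18 months. Each library is labelled with 3 mice, whose cells cannot be told apart, so the library is the replicate, and its number (1, 2 or 4) is shared by 1 library of each group and marks the study's batch. The study's text gives fewer young adult and aged mice per group than these labels add up to. The libraries of a group may therefore share mice. Libraries held between 938 cells with 2550943 UMIs (unique molecular identifiers, counts of distinct transcript molecules) in aged library 1 and 15019 cells with 21920194 UMIs in young adult library 4.

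ECs without a subtype numbered 161, 232 and 295 in young adult libraries 1, 2 and 4. They numbered 24, 212 and 150 in the aged libraries and 285, 234 and 288 in the exenatide-treated aged libraries. Their summed counts ranged from 62926 UMIs in aged library 1 to 574913 UMIs in exenatide-treated aged library 4. Aged library 1 is therefore the least precise point in every comparison: 3 UMIs there correspond to 47.7 CPM (counts per 1000000), against 5.22 to 9.63 CPM in the other 8 libraries. Among these cells 1 barcode occurred in more than 1 library (young adult 4 and aged 2), and over all 72543 cells the 36 pairs of libraries shared 2243 barcodes. Pairs of libraries with the same number shared 0 barcodes, so all of the shared ones fell in pairs of different numbers.

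The authors assigned the endothelial label from known markers, so the levels of such markers describe these cells and are no independent check of the label. *Cldn5*, which encodes the tight junction protein claudin-5 (mm10, chromosome 16, 18776847 to 18778262), had at least 1 UMI in 98.5% of these cells and in 98.6% of ECs with a subtype, against 13.7% of microglia, which should lack it. Median depths were 1413, 1393 and 1296 UMIs per cell. *Flt1*, a receptor for vascular endothelial growth factor, had a UMI in 93.2% of ECs without a subtype, 92.9% of ECs with one and 7.22% of microglia. *Pecam1*, an adhesion molecule of endothelial contacts, had a UMI in 51.0%, 49.4% and 3.20%. Only 3 of the 1881 cells had no UMI of any of these 3 genes, a share of 0.159%, and 27 of 18522 ECs with a subtype did, a share of 0.146%.

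ECs without a subtype made up between 7.25% and 11.6% of the ECs of a library. The share was 7.25%, 8.16% and 8.28% in young adult libraries 1, 2 and 4, with a mean of 7.90% ± 0.561 (SD, n = 3). It was 7.41%, 11.6% and 9.50% in aged libraries (9.50% ± 2.10), and 9.37%, 9.79% and 11.02% in exenatide-treated aged libraries (10.1% ± 0.856). The exact binomial 95% interval of the smallest library, aged 1, ran from 4.80% to 10.8%, and covers counting error only. The young adult shares were below the exenatide-treated ones without overlap, while the aged shares overlapped both. Aged exceeded young adult by 1.61 percentage points (two-sided exact permutation test over libraries, *P* = 0.3, where 0.1 is the smallest value that 3 against 3 allows), and the aged library was the higher in 3 of 3 pairs of the same number. Without aged library 2 this difference was 0.557 points, and without aged library 1 it was 2.66. Exenatide-treated exceeded untreated aged by 0.555 points (*P* = 0.8, exact permutation test), in 2 of 3 pairs. Without aged library 2 the latter difference became 1.61 points, and without aged library 1 it turned to -0.493.

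**Figure D1:**
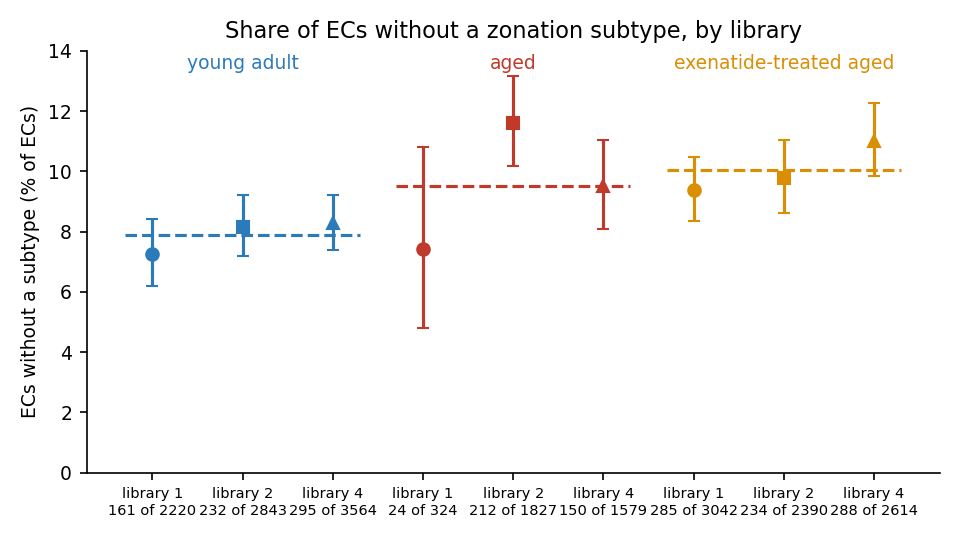
Share of ECs without a zonation subtype (y axis, % of the ECs of a library) in each of the 9 libraries (x axis, with the number of cells), coloured by group. Bars are exact binomial 95% intervals and dashed lines the group means (7.90%, 9.50% and 10.1%); the shares lie between 7.25% and 11.6%, and the interval of aged library 1 is the widest.

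ECs without a subtype were not sequenced less deeply than ECs with one. The median UMI count per cell, averaged over libraries, was 1568 ± 488 (SD, n = 9) in ECs without a subtype and 1504 ± 466 in ECs with one. It was higher in ECs without a subtype in 8 of 9 libraries, on average by a ratio of 1.04 (two-sided exact sign-flip permutation test, *P* = 0.0195, adjusted *P* = 0.0781 over 16 measures). Means over cells gave 1864 against 1833 UMIs, higher in 6 of 9 libraries (exact permutation *P* = 0.246, adjusted *P* = 0.566 over 5 measures). The median number of genes detected per cell was 887 against 852, higher in 8 of 9 libraries (exact permutation *P* = 0.00781, adjusted *P* = 0.0417), and the mean difference of 35.3 genes was 23.1 without aged library 4. With means over cells in place of medians it was 984 against 972 genes (exact permutation *P* = 0.340, adjusted *P* = 0.566 over 5 measures). At an equal depth of 500 UMIs per cell the number of genes was 359.8 against 358.7 (exact permutation *P* = 0.0781, adjusted *P* = 0.25). The mitochondrial share of UMIs, a sign of damaged cells when high, was 4.98% in both classes (exact permutation *P* = 1), and the ribosomal share was 13.95% against 13.92% (exact permutation *P* = 0.707). When the ECs of each library were ranked by UMI count and cut into 4 equal bins, the share without a subtype was 8.76% ± 0.842 in the shallowest bin, 8.65% ± 2.37 and 9.38% ± 1.87 in the next ones and 9.83% ± 1.89 in the deepest.

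In the zonation genes, ECs without a subtype lay inside the range of the 6 subtypes. These genes are described with no test, since the subtype calls were made from genes of this kind. For each of 27 zonation genes on the lists used here, the mean level in ECs without a subtype (CPM of the summed counts, over 9 libraries) was between the lowest and the highest subtype. The clearest departure from the pooled ECs with a subtype was in arterial genes. All 11 arterial genes with enough counts were lower in ECs without a subtype, with a median natural log fold change (*lnFC*) of -0.49, beside a median of -0.001 over all 6897 genes tested. The 6 capillary genes had a median *lnFC* of -0.03 and the 5 venous genes with enough counts one of -0.02.

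*Gkn3*, a gastrokine gene that marks arterial ECs of the brain (chromosome 6, 87383256 to 87388935), had the lowest *lnFC* of these genes. In ECs without a subtype it was at 39.9, 75.1 and 30.2 CPM in young adult libraries 1, 2 and 4, at 61.1, 47.8 and 80.9 CPM in aged libraries and at 119.9, 71.7 and 35.6 CPM in exenatide-treated aged libraries. In ECs with a subtype it was at 199.6, 524 and 218 CPM, 279.7, 324 and 362 CPM, and 428, 379 and 161 CPM. Every library was thus lower in ECs without a subtype, and the 9 values of one class did not overlap the 9 of the other (means 62.5 ± 28.2 and 319 ± 118 CPM, *lnFC* = -1.62). Among subtypes, *Gkn3* was at 1658 CPM in aEC2 and 80.2 CPM in aEC1 (CPM unscaled here and below where subtypes are compared), next to 60.3 CPM in ECs without a subtype.

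Other arterial genes were likewise far below aEC2 or, for *Hey1*, below both arterial subtypes. *Bmx*, which encodes a tyrosine kinase of arterial endothelium, was at 300.4 CPM in aEC2, 49.3 CPM in aEC1 and 38.5 CPM in ECs without a subtype, which ranked 4th of the 7 classes. *Hey1*, a target of Notch signalling, was at 281 CPM in aEC1, 245 CPM in aEC2 and 102.9 CPM in ECs without a subtype, above the other 4 subtypes. *Vegfc*, a growth factor of the vascular endothelial growth factor family, was at 133 CPM in aEC2, 34.8 CPM in aEC1 and 21.7 CPM in ECs without a subtype. *Mgp*, which encodes an inhibitor of calcification, was at 1218 CPM in aEC2, 543 CPM in avEC and 123 CPM in ECs without a subtype. *Sema3g*, a semaphorin of arterial ECs, was at 180.7, 90.5 and 44.4 CPM in aEC2, aEC1 and ECs without a subtype. For each of these 6 genes, *Gkn3* included, ECs without a subtype lay below aEC2 and above capEC. Not every arterial gene on the list did so. *Dll4* was at 43.1 CPM in ECs without a subtype, below capEC (69.5 CPM) and aEC2 (87.8 CPM). *Efnb2* was at 19.7 CPM, nearly level with the 20.4 CPM of capEC.

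Of the 6 capillary genes 3 had an *lnFC* above 0, and of the 5 venous genes 2. *Mfsd2a*, a lipid transporter that limits transcytosis, was at 203 CPM in ECs without a subtype and 204 CPM in ECs with one. *Slc16a1*, the monocarboxylate transporter 1, was at 256 and 255 CPM, and *Spock2*, a proteoglycan gene, at 2023 and 2018 CPM. *Car4*, a carbonic anhydrase gene, was at 671 against 868 CPM, lower in 8 of 9 libraries. *Rgcc*, a regulator of the cell cycle, was at 586 CPM, second only to the 1007 CPM of capEC. *Nr2f2*, the venous transcription factor COUP-TFII, was at 37.0 CPM against 89.6 CPM in vEC and 8.76 CPM in aEC2. The venous amino acid transporter gene *Slc38a5* was at 95.6 CPM against 128 CPM in the pooled ECs with a subtype. Among the subtypes it was at 275 CPM in avEC, 269 CPM in vcapEC and 102 CPM in vEC, the last near the level without a subtype. *Lrg1* and *Ackr1*, at 2.43 and 1.88 CPM against 6.80 and 4.86 CPM in the pooled ECs with a subtype, had too few counts for the fit. *Vcam1*, a leukocyte adhesion molecule that marks avEC at 1284 CPM, was at 65.1 CPM in ECs without a subtype and 117 CPM in the pooled ECs with one, and was lower in 9 of 9 libraries. *Icam1*, another adhesion molecule, was at 122 CPM against 90.03 CPM, but its library values in ECs without a subtype ran from 31.8 to 298 CPM and overlapped those of ECs with a subtype.

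**Figure D2:**
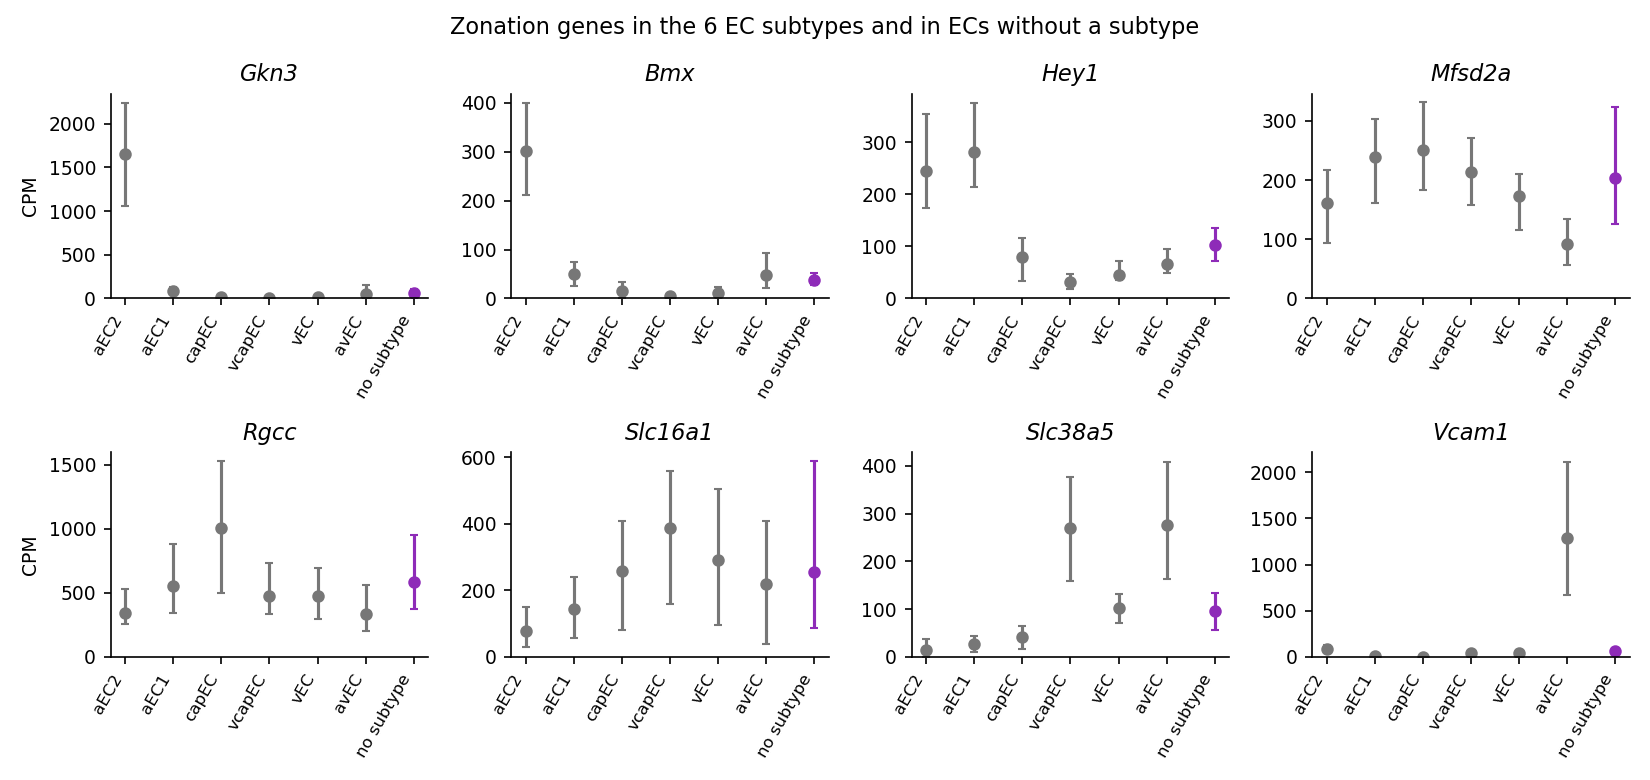
Levels of 8 zonation genes (y axis, CPM of summed counts) in the 6 EC subtypes (grey) and in ECs without a subtype (purple). Points are means over 9 libraries and bars run from the lowest to the highest library; *Gkn3* is at 1658 CPM in aEC2 and 60.3 CPM in ECs without a subtype, while *Mfsd2a* and *Slc16a1* in the latter lie amid the subtypes.

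In single cells thinned to 500 UMIs, 16.1% ± 1.36 (SD, n = 9 libraries) of ECs without a subtype had a UMI of any of the 12 arterial genes, against 20.8% ± 3.02 of ECs with a subtype, 64.5% of aEC2 and 12.0% of capEC. A capillary gene was seen in 79.7% ± 4.86 against 81.6% ± 4.41, and a venous gene in 12.7% ± 3.11 against 14.5% ± 1.93. Arterial and venous genes were seen in the same cell in 1.45% ± 1.03 of ECs without a subtype and 1.97% ± 0.366 of ECs with one. No gene of the zonation lists was seen in 13.6% ± 2.65 of ECs without a subtype and 10.5% ± 2.57 of ECs with one. Among the subtypes this share was 7.86% in vcapEC, 9.34% in aEC2, 10.7% in capEC, 13.1% in aEC1, 13.8% in vEC and 14.8% in avEC, so that ECs without a subtype lay above 4 of the 6 and above the pooled ECs with a subtype.

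Each EC, thinned to 500 UMIs, was also matched to the summed profile of each subtype in the other 8 libraries, again as a description. For ECs with a subtype, the deposited subtype was the nearest for 54.1% ± 5.38 of cells and among the 2 nearest for 78.1%, which shows how far the match can be trusted. ECs without a subtype were nearest to capEC in 22.6% ± 5.88 of cells, to aEC1 in 22.6% ± 6.41, to vcapEC in 21.1% ± 10.0, to vEC in 18.1% ± 8.24, to aEC2 in 9.91% ± 6.41 and to avEC in 5.68% ± 3.52. The same match put 20.6% of ECs with a subtype nearest to capEC, 17.3% to aEC1, 29.2% to vcapEC, 14.6% to vEC, 13.5% to aEC2 and 4.78% to avEC. The match gives every cell 1 of the 6 subtypes, so it cannot show cells unlike all of them. By this match ECs without a subtype spread over all 6 subtypes, and no subtype took most of them. It also varied with the library. In exenatide-treated aged library 4 it put 35.5% of ECs with a subtype nearest to vEC, where 13.7% carried that label. The median margin between the best and the second-best subtype was smaller in ECs without a subtype in 9 of 9 libraries, by a ratio between 0.634 in young adult library 1 and 0.915 in exenatide-treated aged library 4. Among ECs without a subtype the most frequent pair of best subtypes was aEC1 and capEC (21.1%), followed by vcapEC and vEC (20.8%). Among ECs with one, vcapEC and vEC were the most frequent pair (25.2%), and aEC1 and capEC made up 17.0%.

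**Figure D3:**
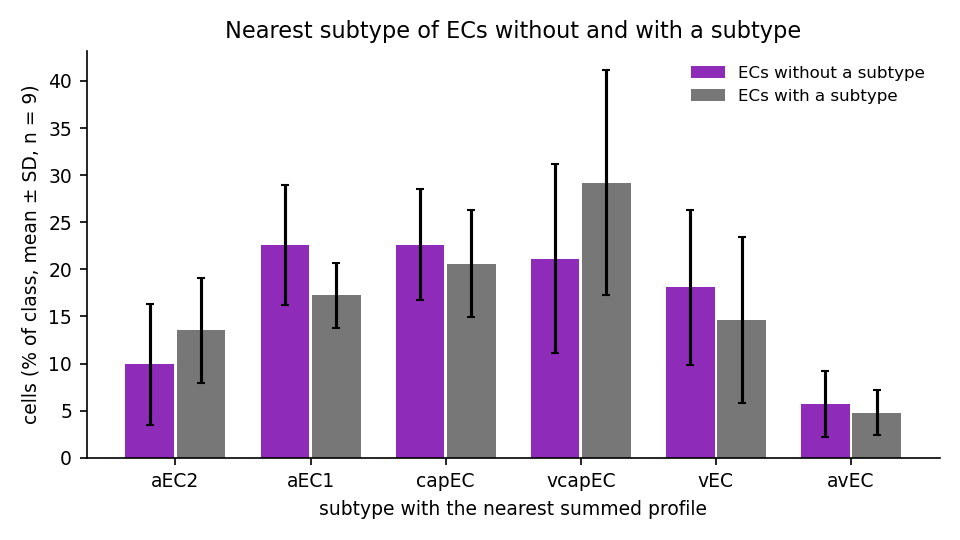
Share of cells (y axis, % of the class, mean with SD over 9 libraries) whose nearest summed profile was that of each subtype (x axis). ECs without a subtype (purple) are spread over the subtypes much as ECs with one (grey), with 21.1% against 29.2% nearest to vcapEC and 22.6% against 17.3% nearest to aEC1.

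Over the genes of at least 50 CPM, the root mean square *lnFC* between ECs without a subtype and a subtype was 0.111 for capEC, 0.125 for vEC, 0.133 for aEC1 and 0.138 for vcapEC. It was larger for avEC (0.206) and aEC2 (0.229), and smallest, 0.0859, for all ECs with a subtype pooled. Taken within each library and then averaged, it was larger and the order changed. It was then 0.241 for capEC, 0.244 for vcapEC, 0.267 for aEC1, 0.274 for vEC, 0.327 for aEC2 and 0.385 for avEC. These values include counting noise, which is larger for the smaller subtypes. In the clusters deposited for the cells, ECs without a subtype were also dispersed: they made up between 7.03% and 10.4% of the ECs in each of the 7 clusters that held more than 500 ECs. Those clusters separated mainly by batch, so that cluster 0 held 2191 ECs of young adult library 2 and 7 of young adult library 1.

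Beyond the zonation genes, few genes separated the 2 classes. UMI counts were added up over the cells of each class in each library, and the quasi-likelihood test of edgeR was run with the library as a block. It called 28 of 6897 genes, 0.406% (Benjamini–Hochberg FDR below 0.05 and |*lnFC*| above 0.1). Of these, 5 were on the zonation lists (*Gkn3*, *Bmx*, *Vcam1*, *Slc38a5* and *Vegfc*). They took part in the fit across all genes, but genes of this kind made the classes, so their calls are no result. The other 23 made up 0.335% of the 6873 genes off the lists, 11 of them higher in ECs without a subtype (0.16%) and 12 lower (0.175%). This balance depended on the processing, with 18 higher and 10 lower under DESeq2's size factors and 8 higher and 50 lower without the low-count filter. The authors' zonation list was not used here in full, so genes among the 23 may have been on it, and their tests may then not be independent of how the classes were made. Of the genes at 50 CPM or more, 87.3% had a |*lnFC*| below 0.1. Of the 23 genes, 8 had the same sign in all 9 libraries and at least 50 CPM in the higher class, namely *Stra6*, *Slc26a10*, *Egfl8*, *Tmem100*, *Hba-a1*, *Snrpa1*, *Gm42418* and *Tmbim6*; the other 15 were named after their values were seen.

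Among genes higher in ECs without a subtype, *Stra6* encodes a receptor for retinol-binding protein that carries vitamin A into cells (chromosome 9, 58063788 to 58153996). In ECs without a subtype it was at 219.5, 119 and 101 CPM in young adult libraries 1, 2 and 4, at 153, 112 and 177 CPM in aged libraries, and at 192, 188 and 164 CPM in exenatide-treated aged libraries. ECs with a subtype had 114, 83.9 and 66.9 CPM, 138, 86.3 and 124 CPM, and 119, 130.1 and 131 CPM. The classes overlapped across libraries, but within each of the 9 libraries ECs without a subtype were the higher (*lnFC* = 0.39 ± 0.05 SE, FDR = 7.3e-10). Of the subtypes, capEC held most *Stra6* (217 CPM), aEC1 less (115 CPM) and avEC least (34.6 CPM).

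*Slc26a10*, a member of the anion transporter family Slc26, was at 95.9 ± 19.6 CPM in ECs without a subtype and 63.7 ± 9.92 CPM in ECs with one, higher in 9 of 9 libraries (*lnFC* = 0.46 ± 0.07 SE, FDR = 1.9e-08). Of the subtypes, aEC2 (110.1 CPM) and aEC1 (95.5 CPM) held more *Slc26a10* than ECs without a subtype (92.8 CPM). *Ets2*, a transcription factor gene of the ETS family, had the largest *lnFC* of the 11 higher genes, 153.5 ± 44.2 against 94.7 ± 21.0 CPM (*lnFC* = 0.53 ± 0.06 SE, FDR = 7.8e-14). It was higher in 8 of 9 libraries, the exception being aged library 1 with 61.1 against 98.0 CPM, where 24 cells stand behind the value. The mean of *Ets2* in ECs without a subtype (147.8 ± 40.2 CPM, SD) was above that of each of the 6 subtypes. The highest of these was capEC (136 ± 33.3 CPM). The means of *Rce1*, a protease gene of protein prenylation (58.9 ± 18.0 CPM), and *Rgs5* (474 ± 266 CPM) were likewise above every subtype. The highest subtypes were aEC2 for *Rce1* (54.3 ± 20.3 CPM) and capEC for *Rgs5* (458 ± 234 CPM). For each of these genes the gap to the highest subtype was smaller than the SD over libraries. *Mt2*, a metallothionein that binds zinc and copper, was at 373 ± 141 against 306 ± 115 CPM, higher in 8 of 9 libraries (*lnFC* = 0.21 ± 0.03 SE), with avEC the highest subtype (414 CPM). *Gngt2*, a G protein subunit gene, and *Ifi27l2a*, an interferon-inducible gene, were higher in 7 of 9 libraries, with *lnFC* of 0.36 ± 0.07 and 0.45 ± 0.09 SE. Both were highest in avEC, *Gngt2* at 148 CPM against 81.0 CPM in ECs without a subtype and *Ifi27l2a* at 251 against 60.7 CPM. Against the unweighted mean of the 6 subtypes (limma), *Ifi27l2a* turned to an *lnFC* of -0.10 (FDR = 0.857). Without exenatide-treated aged library 1, *Ifi27l2a* missed the test (FDR = 0.0967), and without aged library 4 *Rgs5* did (FDR = 0.0586). *Rce1* missed it without young adult library 1 or 4, aged library 2 (FDR = 0.277) or 4, or exenatide-treated aged library 2.

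*Klf4*, a transcription factor of flow-exposed endothelium that is also an immediate early gene, was at 1146 ± 344 against 1016 ± 312 CPM (*lnFC* = 0.10 ± 0.02 SE), higher in 8 of 9 libraries. It was the only gene past the test among the 20 immediate early and stress genes on the list, beside 0.335% over all genes off the zonation lists. All 20 had an *lnFC* above 0, with a median of 0.06 beside -0.001 over all genes tested. *Fos*, a subunit of the transcription factor AP-1, had an *lnFC* of 0.14 ± 0.03 SE (FDR = 0.081). *Apold1* and *Cyr61*, which are not on this list, passed with *lnFC* of 0.12 ± 0.02 and 0.12 ± 0.03 SE. The stress-inducible *Ddit4*, also not on this list, passed in the other direction and is given below. *Klf4*, whose *lnFC* was just past 0.1, missed the criteria when any of young adult library 2 or 4, aged library 1 or 2, or exenatide-treated aged library 2 was left out, with an FDR of at most 0.0588 and an *lnFC* of at least 0.09. *Cyr61* missed it without young adult library 1 (FDR = 0.262), young adult library 4 or aged library 4, and *Apold1* without aged library 2, where its *lnFC* was 0.0979.

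Among genes lower in ECs without a subtype, *Egfl8* (epidermal growth factor-like domain 8, chromosome 17, 34613349 to 34615971) was at 14.3, 27.3 and 12.9 CPM in young adult libraries 1, 2 and 4, at 30.6, 44.6 and 33.0 CPM in aged libraries and at 31.7, 62.7 and 8.91 CPM in exenatide-treated aged libraries. ECs with a subtype had 39.8, 79.9 and 31.5 CPM, 40.0, 99.3 and 44.3 CPM, and 98.2, 100.4 and 22.2 CPM, so that every library was lower in ECs without a subtype (*lnFC* = -0.79 ± 0.10 SE, FDR = 3.3e-11). *Tmem100*, a membrane protein gene of arterial endothelium downstream of ALK1, fell by 0.55 ± 0.08 SE on the ln scale (44.9 ± 12.3 against 77.9 ± 26.8 CPM, 9 of 9 libraries, FDR = 3.1e-08). Both genes were highest in aEC2, at 217 and 284 CPM, as were *Spaar*, *Hrct1*, *Bmx*, *Gkn3* and *Vegfc*. *Hrct1* missed the test without exenatide-treated aged library 2 (FDR = 0.134) and *Spaar* without exenatide-treated aged library 1 (FDR = 0.0793).

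*Snrpa1*, which encodes a component of the U2 spliceosomal particle, was at 36.3 ± 12.5 against 57.8 ± 8.40 CPM and lower in 9 of 9 libraries (*lnFC* = -0.39 ± 0.09 SE, FDR = 0.0061). It was at 47.8 to 63.8 CPM in the 6 subtypes, all above the 35.1 CPM of ECs without one. *Tmbim6*, an inhibitor of cell death in the endoplasmic reticulum, and *Arl6ip5*, a membrane protein gene of the same compartment, also had means below each of the 6 subtypes. So did the interferon-inducible *Ifi27* and *Gm42418*, a noncoding transcript annotated on chromosome 17. The *lnFC* of these genes ran from -0.13 to -0.16. For each of them the gap to the lowest subtype was smaller than the SD over libraries. *Gm42418* was at 424 ± 454 CPM (SD) against 433 ± 459 CPM in vEC, its lowest subtype. *Snrpa1* missed the test without exenatide-treated aged library 2 (FDR = 0.0984), *Ifi27* without exenatide-treated aged library 1 (FDR = 0.109), *Tmbim6* without young adult library 1 or 4, aged library 2 or exenatide-treated aged library 2 or 4, and *Arl6ip5* without young adult library 4, aged library 2 or 4 or any exenatide-treated aged library. *Arl6ip5* was highest in aEC1 (388 CPM) and *Tmbim6* in aEC2 (437 CPM). The lowest subtype for *Arl6ip5*, capEC, was at 295.9 CPM, nearly level with the 295.5 CPM of ECs without a subtype. *Ddit4*, a stress-inducible inhibitor of mTOR signalling and also highest in aEC2 (149 CPM), was at 100.2 against 121.2 CPM and missed the test without young adult library 4, aged library 4 or exenatide-treated aged library 4.

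**Figure D4:**
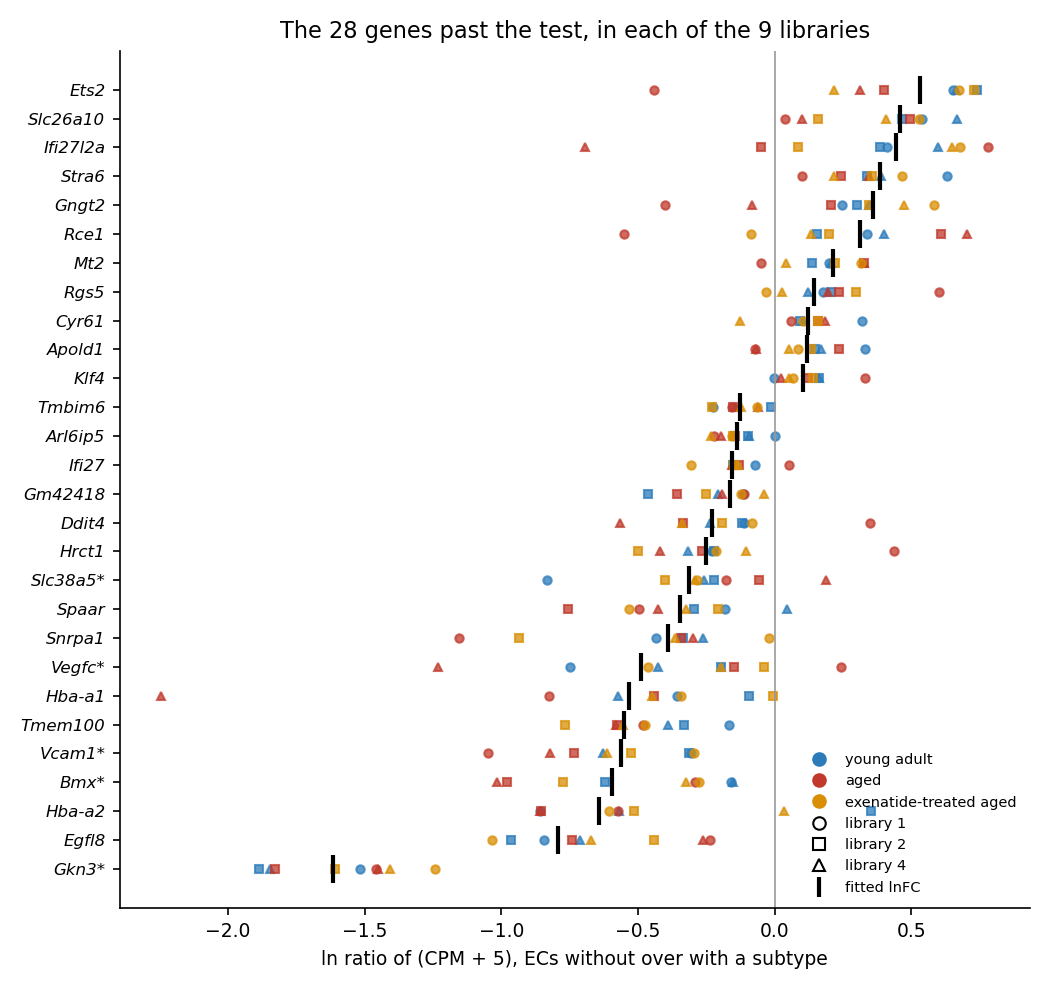
The 28 genes past the fit across all genes, from highest to lowest, with the ln ratio of CPM (5 CPM added) of ECs without over ECs with a subtype (x axis) in each library and the fitted *lnFC* as a black bar. Asterisks mark the 5 zonation genes, shown as a description only. *Gkn3*, *Egfl8*, *Tmem100*, *Stra6* and *Slc26a10* have all 9 libraries on one side of 0, while *Ets2* has aged library 1 on the other side.

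Hemoglobin transcripts, which belong to red blood cells, were lower in ECs without a subtype. *Hba-a1* was at 33.4 ± 42.5 against 59.2 ± 58.0 CPM and lower in 9 of 9 libraries (*lnFC* = -0.53 ± 0.09 SE, FDR = 4.5e-05), and *Hba-a2* was lower in 7 of 9 (*lnFC* = -0.64 ± 0.12 SE, FDR = 0.00011). The 5 red cell genes on the list summed to 149 CPM in ECs without a subtype and 230 CPM in ECs with one, lower in 8 of 9 libraries (exact permutation *P* = 0.00781, adjusted *P* = 0.0417), with *Hbb-bs* the most abundant and *Alas2* at 0.573 and 0.0944 CPM. The sum varied between libraries far more than between classes, from 26.5 CPM in aged library 4 to 514 CPM in exenatide-treated aged library 1 within ECs without a subtype. Cells that the authors annotated as hemoglobin-expressing vascular cells held 171553 CPM of *Hbb-bs*, and the part of red cell transcripts in the other results was not tested.

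Transcripts of pericytes, the mural cells that wrap capillaries, were somewhat higher. The 10 pericyte genes summed to 689 ± 297 CPM in ECs without a subtype and 563 ± 239 CPM in ECs with one, higher in 8 of 9 libraries (exact permutation *P* = 0.00781, adjusted *P* = 0.0417). The mean difference of 125 CPM was 82.3 CPM without aged library 1. In ECs without a subtype the sums were 465, 475 and 768 CPM in young adult, 985, 477 and 1075 CPM in aged and 355, 492 and 1105 CPM in exenatide-treated aged libraries 1, 2 and 4. *Rgs5*, a regulator of G protein signalling, made up 68.9% of the sum and was the only one of 4 tested pericyte genes past the test, beside 0.335% over all genes off the zonation lists (483 ± 260 against 393 ± 219 CPM, *lnFC* = 0.15 ± 0.03 SE, FDR = 0.0030). Of the 10 genes 8 had a higher mean in ECs without a subtype and 2, *Pdgfrb* and *Notch3*, a lower one. *Higd1b* was at 48.2 against 38.3 CPM, higher in 8 of 9 libraries. Of the genes that define pericytes, *Vtn* was at 77.1 against 72.6 CPM, *Pdgfrb* at 8.48 against 8.90 CPM and *Kcnj8* at 12.0 against 7.26 CPM, whereas in pericytes *Vtn* was at 12715 CPM and *Rgs5* at 4971 CPM. The part of pericyte transcripts in the other results was not tested. For smooth muscle, fibroblast, microglia, astrocyte, oligodendrocyte, oligodendrocyte precursor, neuron, choroid plexus and leukocyte markers the adjusted exact permutation *P* was 0.281 or more.

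No gene of endothelial identity or of the barrier lists passed the test, which at 0.335% of all genes off the zonation lists says nothing particular about lists of this size. The 15 identity genes had a median *lnFC* of -0.007 and ranged from -0.05 to 0.08. *Cldn5* was at 6338 ± 1031 against 6751 ± 1254 CPM, lower in 8 of 9 libraries with an *lnFC* of -0.05 ± 0.01 SE (FDR = 0.032), which is below the size limit of 0.1. The 11 junction genes tested had a median of 0.006, the 20 barrier transporters one of -0.02, and the 4 caveolar genes one of 0.02. The 16 genes of Wnt and beta-catenin signalling, the pathway that induces and keeps the barrier, had a median of -0.02, and the 14 genes of TGF-beta and BMP signalling one of -0.03. Of 18 class I MHC and interferon genes *Ifi27* alone passed, and of 7 metallothionein and glucocorticoid genes *Mt2* alone. The interferon-inducible *Ifi27l2a*, which is not on this list, passed in the direction opposite to *Ifi27*. The 13 mitochondrially encoded and 86 ribosomal protein genes had medians of -0.01 and 0.005 with none past the test, and the same holds for them.

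The number of genes past the test depended on the fit. Off the zonation lists, leaving out 1 library gave 17 (without young adult library 4) to 26 genes (without aged library 1), and 10 of the 23 passed with each library left out in turn, among them *Egfl8*, *Tmem100*, *Ets2*, *Stra6*, *Slc26a10* and *Mt2*. Against the unweighted mean of the 6 subtypes (limma), 3 passed, namely *Egfl8*, *Tmem100* and *Stra6*. With DESeq2's Wald test 12 genes off the lists passed, 11 of them among the 23, and with the group in place of the library as the covariate 0 did. With cells thinned to 500 UMIs, 10 of 2267 genes tested off the lists passed, 9 higher and 1 lower. Of these 10, 5 were among the 23, not all of which had enough counts there.

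To see how age bore on ECs without a subtype, their summed counts were compared between aged and young adult libraries. The test without a block, which is the main design of this comparison, called 0 of 5468 genes (0%), with 124 at an unadjusted *P* below 0.05, while DESeq2 called 2, *Fmo2* and *H2-Q7*. A count of 0 here does not show that no gene changed, since the libraries of a group varied widely. Libraries of the same number varied together, and with the number as a block edgeR called 6 genes (0.11%), 3 higher in aged (0.0549%) and 3 lower (0.0549%). The age effects below are given with the block. In edgeR with all 9 libraries none of these 6 passed without it.

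*Fmo2*, a flavin-containing monooxygenase gene (chromosome 1, 162874317 to 162898726), was at 17.9, 14.2 and 15.2 CPM in young adult libraries 1, 2 and 4, at 112.9, 63.4 and 124.5 CPM in aged libraries and at 63.4, 62.2 and 134 CPM in exenatide-treated aged libraries. All aged values were above all young adult ones (*lnFC* = 1.79 ± 0.26 SE, FDR = 0.00045). *H2-Q7*, a nonclassical class I MHC gene whose reads may be shared with its near-identical *H2-Q* neighbours, was at 5.97, 28.5 and 0 CPM in young adult libraries, at 112.9, 153 and 56.3 CPM in aged ones and at 96.2, 71.5 and 62.7 CPM in exenatide-treated aged ones (*lnFC* = 2.36 ± 0.34 SE, FDR = 0.00049). The groups again did not overlap. *Stmn2*, which encodes a microtubule-destabilizing stathmin, was at 107.5, 181.4 and 60.9 CPM in young adult, 290.4, 277 and 166 CPM in aged and 314, 323 and 161 CPM in exenatide-treated aged libraries (*lnFC* = 0.77 ± 0.16 SE, FDR = 0.036). Its aged library 4 lay below young adult library 2, and the aged library was the higher in each of the 3 pairs of one number.

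*Sparc*, an extracellular matrix glycoprotein gene of the vessel wall, was at 1926, 1690 and 1432 CPM in young adult libraries 1, 2 and 4, at 903.5, 1037 and 690.5 CPM in aged ones, and at 980.8, 1023 and 659 CPM in exenatide-treated aged ones (*lnFC* = -0.65 ± 0.11 SE, FDR = 0.0012). *Mt1*, a metallothionein gene, was at 2021, 1444 and 1628 CPM in young adult, 790.5, 994 and 676 CPM in aged and 1823, 1132 and 693 CPM in exenatide-treated aged libraries (*lnFC* = -0.70 ± 0.14 SE, FDR = 0.036). Both genes were lower in every aged library than in every young adult one. *Olfr655*, annotated as an olfactory receptor gene, was at 35.8, 24.9 and 76.2 CPM in young adult libraries and at 0, 3.33 and 8.89 CPM in aged ones (*lnFC* = -2.11 ± 0.44 SE, FDR = 0.036), and its aged values are within a few UMIs of 0.

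**Figure D5:**
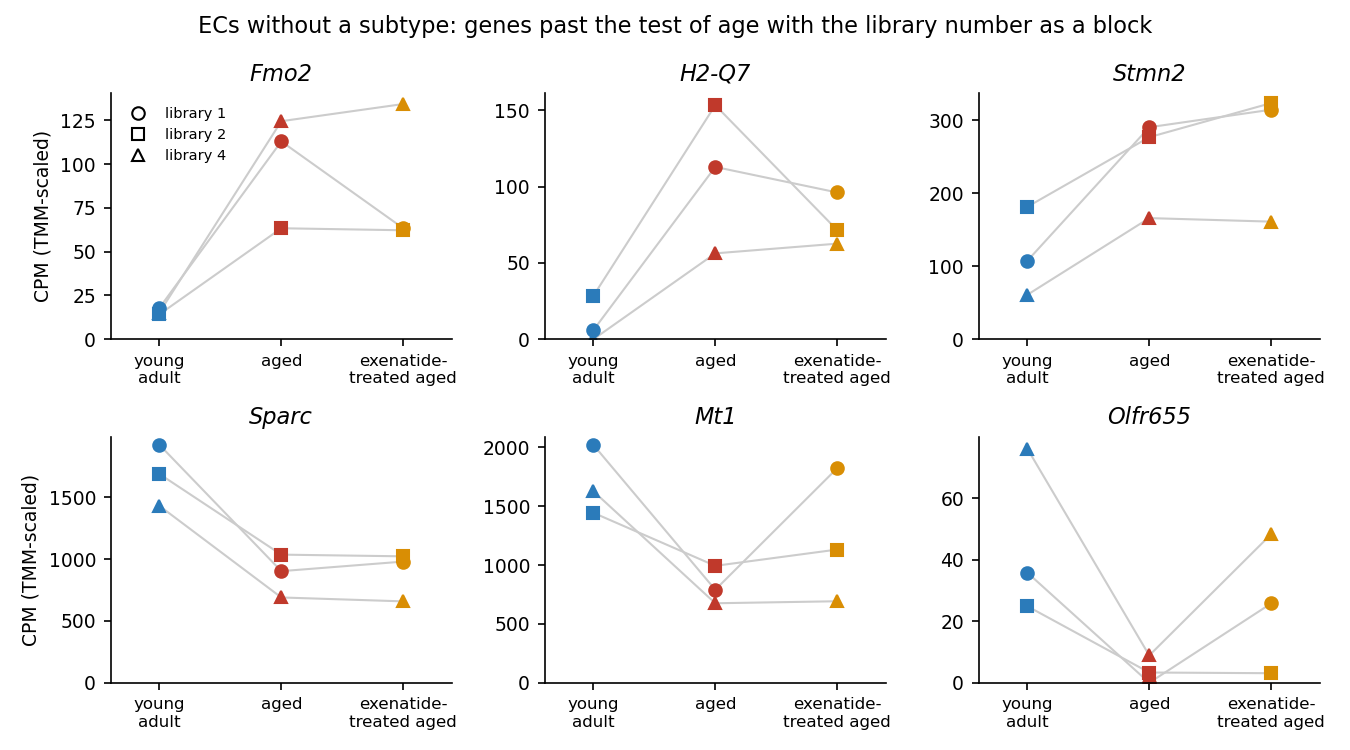
Levels (y axis, CPM scaled by TMM) in ECs without a subtype of the 6 genes past the test of age with the library number as a block, in the 3 groups (x axis). Each point is 1 library and grey lines join libraries of the same number; *Fmo2*, *H2-Q7*, *Sparc*, *Mt1* and *Olfr655* show no overlap between young adult and aged.

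The same genes were read in ECs with a subtype of the same libraries. There the *lnFC* with the block was 1.20 ± 0.18 SE for *Fmo2*, 1.77 ± 0.29 for *H2-Q7*, -0.64 ± 0.09 for *Sparc*, -0.62 ± 0.12 for *Mt1*, 0.84 ± 0.15 for *Stmn2* and -0.11 ± 0.82 for *Olfr655*. The difference of the age effect between the classes was 0.54 ± 0.27 SE for *Fmo2*, 0.43 ± 0.33 for *H2-Q7* and -1.77 ± 0.77 for *Olfr655*, and none passed the interaction test (FDR = 0.9995 each).

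Genes next in order of *P* did not pass with or without the block. *Vwf*, the von Willebrand factor gene, was at 111 ± 7.36 CPM in young adult and 229 ± 63.2 CPM in aged libraries (FDR = 0.135 with the block), and *Syne2*, a gene of the nuclear envelope, at 57.3 ± 3.42 and 122 ± 10.5 CPM (FDR = 0.192). *Mt2* was at 549 ± 85.8 and 279 ± 38.8 CPM (FDR = 0.058). Of the lists, the 7 metallothionein and glucocorticoid genes all had an *lnFC* below 0 (median -0.24 with the block, *Mt1* past the test), beside a median of -0.02 and 0.11% past the test over all genes. The 17 class I MHC and interferon genes had a median of 0.07 with 1, *H2-Q7*, past the test, and the 15 identity genes one of -0.06 with none. The 8 microglia genes tested all had an *lnFC* below 0 (median -0.48, 7 of 8 below 0 without the block), with none past the test. Their whole list of 10 summed to 493, 591 and 674 CPM in young adult libraries, 222, 534 and 244 CPM in aged ones and 749, 481 and 647 CPM in exenatide-treated aged ones, with *C1qb* the most abundant. The 5 astrocyte genes tested also had an *lnFC* below 0 (median -0.32, none past the test), and their whole list of 8 summed to 278, 491 and 848 CPM in young adult, 191, 341 and 642 CPM in aged and 403, 313 and 798 CPM in exenatide-treated aged libraries. The part of these transcripts in the age comparison was not tested.

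Exenatide-treated aged libraries were compared with untreated aged ones in the same way. No gene of 5468 passed (0%), with 41 at an unadjusted *P* below 0.05, and 210 with the library number as a block, where 0 passed as well. DESeq2 also called 0. The exenatide effects below are given without the block. Of the 6 genes that passed for age with the block, *Sparc* was at 877 ± 175 CPM in aged and 888 ± 199 CPM in exenatide-treated aged libraries, *Fmo2* at 100.3 ± 32.5 and 86.6 ± 41.3 CPM, and *H2-Q7* at 107.5 ± 48.8 and 76.8 ± 17.4 CPM, all differences within the spread of the libraries. *Mt1* was at 820.0 ± 161 and 1216 ± 570 CPM, with the treated library the higher in each of the 3 pairs of one number (*lnFC* = 0.30 ± 0.14 SE with the block, FDR = 0.9986). *Stmn2* was at 244 ± 68.3 and 266 ± 91.2 CPM. *Olfr655* was at 0, 3.33 and 8.89 CPM in aged and 25.8, 3.11 and 48.3 CPM in exenatide-treated aged libraries 1, 2 and 4 (*lnFC* = 1.54 ± 0.65 SE, FDR = 0.9999), and the groups overlapped. Both comparisons use the same 3 aged libraries.

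The genes with the smallest *P* for exenatide included *Trem2*, a microglial receptor gene, at 17.0 ± 2.70 CPM in aged and 45.9 ± 18.8 CPM in exenatide-treated aged libraries (FDR = 0.9999). In microglia of these libraries it was at 2327 CPM. All 8 microglia genes tested had an *lnFC* above 0 with a median of 0.53, and all 5 astrocyte genes one of 0.23, beside 0.01 over all genes. The part of these transcripts in the exenatide comparison was not tested. On the other side, *Flt4*, the receptor VEGFR-3, was at 91.2 ± 32.8 and 45.1 ± 11.8 CPM and *Calm3*, a calmodulin gene, at 119.7 ± 35.95 and 59.96 ± 11.2 CPM (FDR = 0.9999 each). Of 17 class I MHC and interferon genes 1 had an *lnFC* above 0 (median -0.12), and the 15 identity genes had a median of 0.02.

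Whether the effects of age and exenatide differed between ECs without and with a subtype was tested as an interaction over the 2 sums of each library. For each of the 2 effects, 1 of 6897 genes passed (0.0145%), and it was *Timp3*, which encodes an inhibitor of matrix metalloproteinases. In ECs without a subtype *Timp3* was at 854, 875 and 668 CPM in young adult, 823, 990 and 812 CPM in aged and 1084, 1182 and 983 CPM in exenatide-treated aged libraries 1, 2 and 4. In ECs with a subtype it was at 698, 691 and 583 CPM, at 943, 988 and 1001 CPM and at 825, 1000 and 824 CPM, scaled within that class. With a subtype, the aged values were above all young adult ones, while without a subtype they overlapped. The age effect in ECs without a subtype minus that in ECs with one was -0.29 ± 0.06 SE (FDR = 0.041), and the exenatide effect differed by 0.30 ± 0.06 SE (FDR = 0.0062). The aged libraries enter both differences. The age difference missed the test without young adult library 1 or 2, aged library 4 (FDR = 0.965, value -0.23) or any of the 3 exenatide-treated libraries, and the exenatide difference without aged library 4 (FDR = 0.907, value 0.24) or exenatide-treated library 1.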

How the data were processed

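The 9 single-cell libraries were analysed as 3 groups of 3 replicates. Per the methods of the study and the submitters' processing notes, the authors counted UMIs with Cell Ranger v3.0.0 on mm10, filtered cells and clusters (genes in fewer than 3 cells, UMI and gene numbers outside the 5th to 95th percentile, over 20% mitochondrial UMIs, clusters with markers of 2 cell types) and annotated cells in Seurat v3.0.1. No doublet caller was run here. Natural log values make up the deposited matrix, each the ln of 1 plus 10000 times a gene's UMIs over the total of the cell. With the deposited total UMI count per cell, all 58404382 entries came out whole (within 1e-06), and the cell totals matched, so counts were tested although the values are deposited on a log scale. The mitochondrial and ribosomal shares were deposited as a fraction by the authors. The mitochondrial, ribosomal, cell type, subtype, library and cluster entries of the deposited table were used. Gene coordinates are from GENCODE M21 (mm10).

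Counts were summed per library and class. edgeR v4.0.16 (TMM, filterByExpr, robust quasi-likelihood, R v4.3.3) was used with all 9 libraries and with the library as a block for the comparison of classes and for interactions. CPM in gene tests are scaled by TMM. FDR is the Benjamini–Hochberg adjusted *P*, with a threshold of 0.05 and |*lnFC*| above 0.1. Alternatives used DESeq2 v1.42.0, limma v3.58.1, no low-count filter, cells thinned to 500 UMIs and each library left out. The scripts were tested on simulated counts with changes of 1.5-fold and 2-fold. The changed genes were drawn from those of at least 50 CPM. At these sizes the age test without a block found few of the changed genes and the comparison of classes nearly all. The age test with the block and genes of lower counts were not tried in this way. Permutation tests were exact and two-sided.

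Whether library numbers pair the groups was checked by correlating deviations from the group means: Pearson's r was 0.360 to 0.598 over the 9 pairs of libraries with the same number and -0.365 to -0.0682 over the other 18, so the numbers were taken as batches that pair the groups. The coefficient of biological variation was 0.311 without and 0.143 with the number as a block, and 0.0291 between the classes of a library.

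Genes were named by a rule: between classes up to 12 per direction with the largest |*lnFC*| past the test, the same sign in 9 libraries, at least 50 CPM and off the zonation lists; between groups up to 8 per direction with the smallest *P* and at least 20 CPM. The cells, gene lists and comparisons were chosen with earlier results of these data known. Intervals cover counting error only. In comparisons of groups, *P* values measure the spread between libraries, which may share mice, or with the block the spread left after the library number. In comparisons of classes and in interactions they measure the spread of the differences between classes within libraries. They do not measure the spread between libraries there. The labels give 3 mice in each library, which adds up to more young adult and aged mice than the study's text gives.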

Additional observations from a re-analysis of the deposited data

Results flagged for a closer look

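*Timp3* stood out because its age effect and its exenatide effect differed between ECs without and with a subtype by an interaction test (edgeR, library as a block). The age effect was lower in ECs without a subtype by an *lnFC* of -0.29 (FDR = 0.041), and the exenatide effect was higher by 0.30 (FDR = 0.0062). With the library number as a block, *Timp3* rose with age in ECs with a subtype (*lnFC* = 0.40 ± 0.08 SE, FDR = 0.021), while ECs without a subtype gave 0.10 ± 0.11 SE (FDR = 0.86). The aged libraries are shared by both differences, which are therefore not independent of each other, and aged library 4 is one of several libraries without which each call was lost. Groups of 3 libraries are too small for a check of single outlying samples.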

How the results depend on the processing

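The comparison of ECs without and with a subtype gave 28 genes (11 higher and 17 lower), and 33 with DESeq2's size factors (18 and 15). It gave 66 without a low-count filter (8 and 58), 16 with DESeq2's Wald test, 15 with cells thinned to 500 UMIs (2280 genes tested), 18 with Bonferroni adjustment, 1 with no replicate block and 6 with limma against the unweighted mean of the subtypes, where *Ifi27l2a* turned to an *lnFC* of -0.10. Leaving out 1 library gave 21 to 32 genes. These counts include zonation genes, whose calls are no result. Off the zonation lists the main fit gave 23 genes, DESeq2's size factors 28 and no low-count filter 58. DESeq2's Wald test gave 12 there, thinned cells 10, Bonferroni adjustment 14, no replicate block 0 and limma 3. With 1 library left out there were 17 to 26. For age, 0 genes became 2 with DESeq2's Wald test and 6 with the replicate block, and 0 to 1 with 1 library left out (*H2-Q7* without young adult library 2); exenatide stayed at 0 throughout, the block included. The 1 gene of the age interaction became 0 to 8 and that of the exenatide interaction 0 to 5 with 1 library left out (both highest without aged library 2), and the latter 3 without a filter. The interactions and the comparison of classes carry the library as a block already, and the block changed no other call.

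The difference in share, aged over young adult, was 0.557 to 2.66 points, and exenatide-treated over aged -0.493 to 1.61, with 1 library left out. With means over cells in place of medians the differences between classes were 30.4 UMIs and 11.2 genes per cell (exact permutation *P* = 0.246 and 0.340), and the mitochondrial share turned to 0.0689 points. With 1 library left out, the differences between classes were -0.143 to 0.0419 points for the mitochondrial share, 0.00531 to 0.106 points for the ribosomal share and 0.75 to 1.38 genes at 500 UMIs. In summed CPM they were 82.3 to 145 for pericyte, -4.52 to 4.58 for smooth muscle, -0.944 to 1.81 for fibroblast, -8.35 to 20.1 for microglia, -94.5 to 38.6 for choroid plexus, -9.59 to -3.97 for leukocyte, -13.7 to -4.79 for oligodendrocyte and -4.16 to -1.85 for oligodendrocyte precursor markers. For astrocyte markers they were 1.06 to 28.4, for neuron markers 1.65 to 5.67 and for red cell markers -92.6 to -68.7. The smallest sum of ECs without a subtype was that of aged library 1, with 24 cells. The causes were not tested.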
